A study of Mus musculus with 130 samples.

Results

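The pocket proteins and the DREAM and MuvB complexes were followed through 10 genes: the repressor E2F genes E2f4 and E2f5, the pocket protein genes Rb1, Rbl1 and Rbl2, the MuvB core genes Lin9, Lin37, Lin52 and Lin54, and Mybl2, which encodes B-Myb. They were picked by gene name from the 52550 genes of the count table, with earlier results of these data known. All 10 were found and all 10 passed the filter on low counts in every comparison. The cells came from FVB/NJ mouse embryos at E10.5, E11.5 or E13.5 that carried FUCCI, a pair of fluorescent cell cycle reporters, and the design text calls them wild type, so every group shares the reporter and the strain. Minced embryos were flow-sorted into 4 gates: BR, labelled as G0, DR as G1, YE as the G1-S transition, and GR as S, G2 and M together (S-G2-M here). An unsorted fraction (US) was sequenced beside them. Each of the 5 fractions held n = 5 preparations, named after their titles. E10.5 gave the preparations WT1 and WT2, E13.5 gave those titled 5 and 8, and a single one, WT3, was E11.5. A gate holds every cell type of the embryo that shows its colours, and no label tells if 1 embryo or several went into a preparation.

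As background, pocket proteins bind E2F transcription factors and keep cell cycle genes off until cyclin-dependent kinases phosphorylate them. In quiescent cells p130 (encoded by Rbl2) or p107 (Rbl1), with E2F4 or E2F5 and a DP partner, joins the MuvB core to form DREAM, which represses genes through E2F sites and through CHR elements in their promoters. When cells enter the cycle the MuvB core leaves the pocket protein and takes up B-Myb, and this MMB complex with FoxM1 activates the late genes of G2 and mitosis. In the embryo Rb1 is known for its part in erythroid, neuronal and muscle differentiation.

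Promoter sequences are shown for the members that rose with the cell cycle and, for contrast, for Rbl2 and Lin37, whose level did not change by the test between G0 and S-G2-M. Of the 10 members 6 had an entry in the RefSeq promoter table (build GRCm38.p6): Rbl1, Rbl2, Lin37, Lin52, Lin54 and Mybl2. Each line gives the 100 bases before the start site, 5′ to 3′ on the strand of the gene, and capitals mark a match to the letters GGCGGGA or GCGCGAA, 2 forms of the E2F site, on either strand. The windows are chr2:163054535-163054634 (plus strand) for Mybl2, chr2:157204535-157204634 (minus) for Rbl1, chr5:100498574-100498673 (minus) for the inner of the 2 start sites of Lin54, chr12:84451408-84451507 (plus) for Lin52, chr7:30559647-30559746 (minus) for Lin37 and chr8:91069957-91070056 (plus) for Rbl2.
Mybl2: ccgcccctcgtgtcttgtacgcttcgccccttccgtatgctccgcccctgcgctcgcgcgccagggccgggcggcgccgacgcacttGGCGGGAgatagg
Rbl1: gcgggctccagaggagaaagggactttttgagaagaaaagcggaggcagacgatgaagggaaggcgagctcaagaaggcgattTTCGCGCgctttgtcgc
Lin54: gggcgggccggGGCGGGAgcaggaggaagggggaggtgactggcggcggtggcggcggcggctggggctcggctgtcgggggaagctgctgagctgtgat
Lin52: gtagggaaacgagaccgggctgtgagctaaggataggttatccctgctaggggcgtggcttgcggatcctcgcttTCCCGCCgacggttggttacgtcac
Lin37: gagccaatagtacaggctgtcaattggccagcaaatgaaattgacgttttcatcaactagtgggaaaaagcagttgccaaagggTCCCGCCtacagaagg
Rbl2: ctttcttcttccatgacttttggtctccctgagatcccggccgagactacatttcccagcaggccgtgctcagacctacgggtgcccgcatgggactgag
Counted from the start site, the match lay at -13 to -7 in Mybl2, -17 to -11 in Rbl1, -16 to -10 in Lin37, -25 to -19 in Lin52 and -89 to -83 in Lin54, and the Rbl2 window held none. The window of the outer Lin54 start, chr5:100500640-100500739, and the 300 bases around that start held none either. Over the full 300 bases (250 before and 50 after the start) Lin52 had another match at -223 to -217. On either strand, the CHR letters TTTGAA or TTCGAA were found in Lin37 (-197 to -192), Rbl2 (-201 to -196) and Lin54 (-162 to -157 and 29 to 34 at the inner start, 40 to 45 at the outer), and the MYB letters TAACGG in Rbl1 (-152 to -147). These matches do not overlap each other. Of 32851 promoters of the same length, 12.6% held an E2F match, 19.2% a CHR match and 2.76% a MYB match. A match describes the letters and is not a bound site; Lin37, not called at any of the 3 steps between gates, and Mybl2, which moved most, both carry the letters GGCGGGA.

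Levels are given as CPM, the read count of a gene relative to the scaled total of its library, and changes are log2 ratios with their standard error (SE) from a model of all 25 libraries. Library totals ran from 14692256 to 58492064 counts. The mitochondrial share was 0.372% to 0.701% where the title begins with WT (15 libraries) and 1.66% to 3.42% in the 10 titled 5 or 8. Embryonic day and this titling batch cannot be told apart, and values within each batch are given beside the results. Late target genes of the cell cycle, 18 in all, summed to 90.7 to 205 CPM in G0, 178 to 493 in G1 and 5845 to 6717 in S-G2-M, in the order of the gate labels. Cell type markers moved with the gates too: 10 neuronal markers summed to 4926 to 9325 CPM in G0, 816 to 2124 in G1, 440 to 914 in G1-S and 225 to 573 in S-G2-M, and none of the 10 was at 0. The 6 neural progenitor markers summed to 254 to 418 CPM in G0 and 708 to 939 in S-G2-M. In such bulk libraries, fewer cells of a type and less RNA per cell cannot be told apart, and the part of cell type in the gate changes below was not tested.

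From G0 to S-G2-M most of the set rose, with Mybl2 and Rbl1 changing most, while Rb1 fell. Of the 10 members 7 were higher in S-G2-M than in G0 and 1 was lower, where 27.5% of all 23506 genes tested were higher and 26.6% lower (edgeR quasi-likelihood test, adjusted p under 0.05). The median log2 change of the members was 1, against -0.013 over all genes (0.947 and -0.104 with DESeq2). By steps, 4 members were higher in G1 than in G0 and 0 lower (all genes 18.2% and 18.1%); 1, Rb1, was lower at an unadjusted p under 0.05, and 0 by DESeq2. In G1-S 5 were higher than in G1 and 0 lower (11.7% and 7.18%; 0 lower at an unadjusted p under 0.05 and by DESeq2). In S-G2-M 4 were higher and 1 lower than in G1-S (7.28% and 10.1%). The member medians at these steps were 0.18, 0.28 and 0.28, against 0.010, 0.011 and 0.0041 over all genes. Another scaling moved the split of all genes at G1-S against G1, where 62.0% of the called genes were higher, to 51.9% with RLE factors, 50.5% with DESeq2 and 50.1% with the RNA genes Gm26917 and Gm42418 left out; 5, 5 and 4 members were then called, all higher.

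**Figure D1:**
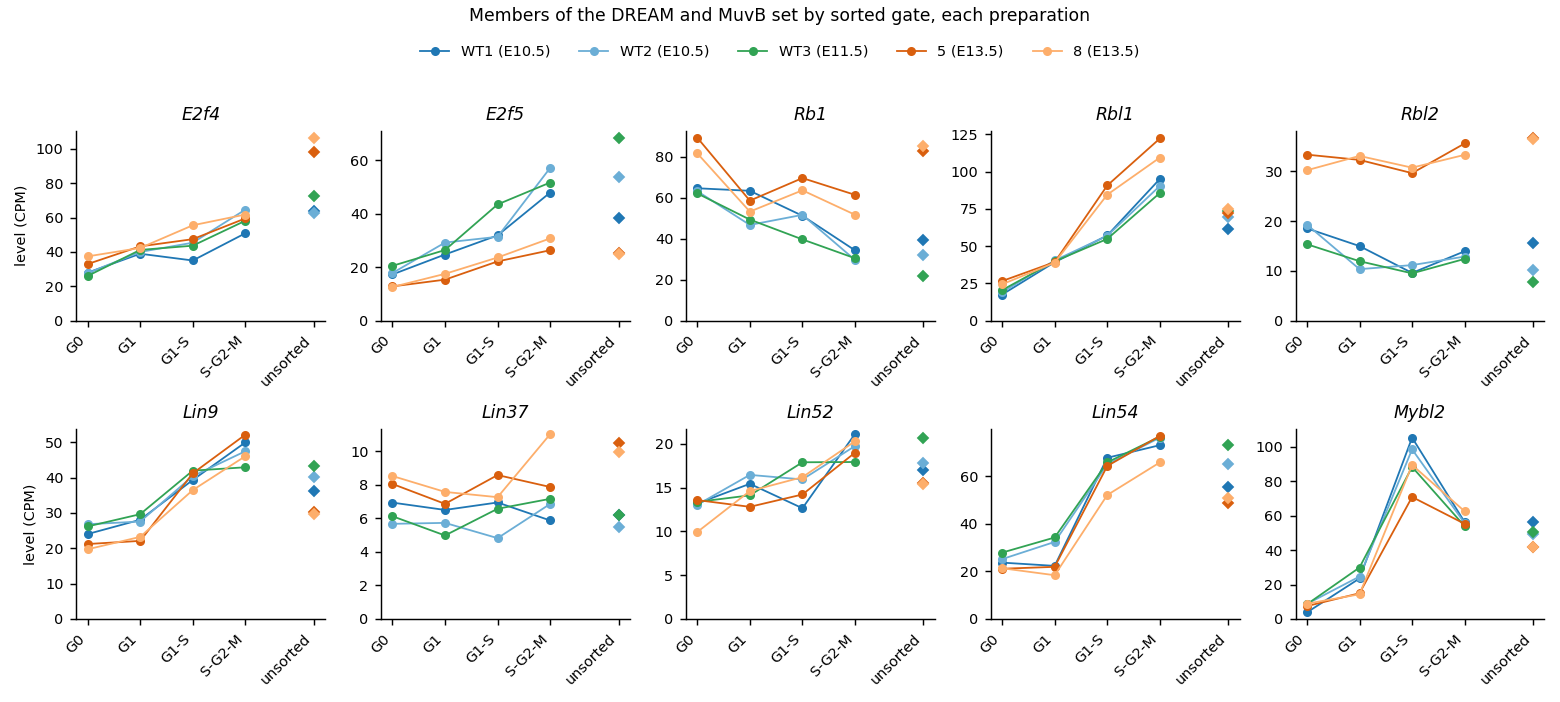
Level in CPM (y axis, from 0) of each member in the 4 gates and in unsorted cells (x axis). Points joined by a line are the libraries of 1 preparation, diamonds are its unsorted library and colours give the preparation with its day: Mybl2 peaks in G1-S in all 5 preparations, Rbl1 climbs from G0 to S-G2-M, and the E13.5 preparations stand apart from the others for Rbl2.

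**Figure D2:**
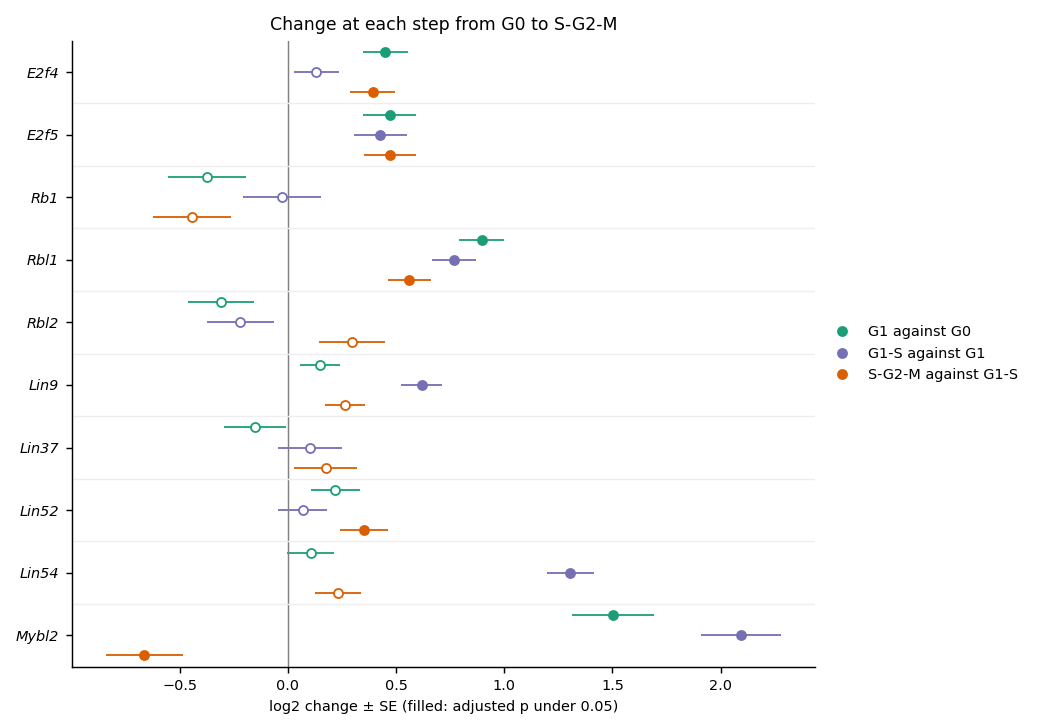
Log2 change (x axis) of each member (y axis) at the 3 steps from G0 to S-G2-M, with bars of 1 SE. Filled points passed the test: Lin54 rose by 1.30 and Lin9 by 0.62 from G1 to G1-S, and Mybl2 fell after G1-S by 0.67.

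The repressor E2F genes rose together through the gates. E2f4 (ENSMUSG00000014859.9, chromosome 8 from 105297663 to 105305370 on GRCm38), the repressor E2F best known in quiescent cells, stood at 27.95, 27.7, 26.03, 32.9 and 37.4 CPM in the G0 libraries of WT1, WT2, WT3, 5 and 8, an order kept below. In S-G2-M it stood at 50.9, 64.6, 58.2, 59.5 and 61.8 CPM, and the groups did not overlap. The change was 0.97 ± 0.11 on the log2 scale (SE, n = 5; adjusted p = 3.70e-08), 1.11 within the WT-titled preparations and 0.73 within 5 and 8. E2f5 (ENSMUSG00000027552.14, chromosome 3 from 14578641 to 14606309), its close relative, went from 17.3, 17.8, 20.5, 12.8 and 12.6 CPM in G0 to 48.0, 57.2, 51.7, 26.4 and 30.8 in S-G2-M. Its rise of 1.37 ± 0.12 (adjusted p = 1.93e-09; 1.52 and 1.11 within the batches) was seen in 5 of 5 preparations. Unlike E2f4, whose step from G1 to G1-S was 0.13 ± 0.10 (adjusted p = 0.418), E2f5 was called at each of the 3 steps, by 0.47, 0.43 and 0.47; whether the genes differ at that step was not tested. The middle call of E2f5 was lost within the WT-titled preparations (0.39, adjusted p = 0.173), without a low-count filter (adjusted p = 0.0678), with Gm26917 and Gm42418 left out (adjusted p = 0.0597) and without WT3, 5 or 8 (adjusted p = 0.115, 0.0851 and 0.137). Its last was lost without WT2 (adjusted p = 0.0698). The last step of E2f4, 0.39 ± 0.10, was lost within preparations 5 and 8 (0.24, adjusted p = 0.0799) and without 5 (adjusted p = 0.0573).

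Per kilobase of exon, E2f4 and E2f5 were near parity at E10.5 and E2f4 was the larger part at E13.5. In G0 E2f4 made up 53.5% of the pair at E10.5 (mean of 2 libraries) and 66.7% at E13.5, and in S-G2-M 44.3% and 60.7%. Over all 5 preparations its share was 57.7 ± 8.6% in G0 and 51.0 ± 8.9% in S-G2-M (SD, n = 5). It was lower in S-G2-M than in G0 in 5 of 5 preparations, going from 54.0% to 43.5%, 53.0% to 45.1%, 47.96% to 44.98%, 65.1% to 62.1% and 68.3% to 59.3%.

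The pocket protein genes went separate ways. Rbl1 (ENSMUSG00000027641.13, chromosome 2 from 157145893 to 157204534, minus strand), encoding p107, is itself a known E2F target. It rose from 17.6, 19.1, 20.5, 26.6 and 24.4 CPM in G0 to 39.3, 40.5, 39.9, 39.3 and 38.95 in G1, then to 57.2, 57.0, 54.9, 90.8 and 84.6 in G1-S and to 95.2, 90.5, 85.8, 122 and 109.5 in S-G2-M. G0, G1 and G1-S did not overlap, and each step was higher in 5 of 5 preparations. The change from G0 to S-G2-M was 2.22 ± 0.11 (4.67-fold, adjusted p = 8.19e-14; 2.27 and 2.13 within the batches), and the steps were 0.89, 0.77 and 0.56, all called also within each batch.

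Rb1 (ENSMUSG00000022105.6, chromosome 14 from 73183673 to 73325822, minus strand), the retinoblastoma gene, was highest in G0. It stood at 64.7, 63.3, 62.2, 89.5 and 81.8 CPM there and at 34.4, 29.7, 30.5, 61.5 and 51.8 in S-G2-M. The groups did not overlap, and the fall of 0.85 on the log2 scale (SE 0.18, adjusted p = 0.000345) was seen in 5 of 5 preparations, with -0.99 within the WT-titled preparations and -0.65 within 5 and 8. By their means over all preparations, G1 (54.3 CPM) and G1-S (55.2 CPM) lay between and did not differ beyond their spread (log2 change -0.03 ± 0.18, adjusted p = 0.941). The steps before and after were -0.38 (adjusted p = 0.109) and -0.44 (adjusted p = 0.0949); both were called without a low-count filter (adjusted p = 0.0468 and 0.0102) and with sorted libraries alone (adjusted p = 0.0287 and 0.0156). Within 5 and 8 G1 was lower than G0 (-0.63, adjusted p = 4.11e-05), while within the WT-titled preparations that step was -0.25 (adjusted p = 0.279) and S-G2-M was lower than G1-S (-0.58, adjusted p = 0.031), a step of -0.22 within 5 and 8 (adjusted p = 0.0964). Without a test, S-G2-M stood -0.88, -0.66 and -0.695 from G1 on the log2 scale in WT1, WT2 and WT3, and 0.07 and -0.04 in 5 and 8. The neuronal markers given above were highest in the gate where Rb1 was highest, and their part was not tested. Exons of Rcbtb2 and Lpar6 on the other strand cover 14.9% of the exon length of Rb1, and whether reads were counted by strand is not given in the sources used here; Rcbtb2 went the other way, from a mean of 90.4 CPM in G0 to 155 in S-G2-M, while Lpar6 had means of 29.9 and 30.5 CPM (37.4 and 33.6 at E10.5, 17.3 and 25.8 at E13.5).

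Rbl2 (ENSMUSG00000031666.15, chromosome 8 from 91070057 to 91123844), encoding p130, the pocket protein of classical DREAM, was not called at any of the 3 steps or between S-G2-M and G0; G1-S against G0 and S-G2-M against G1 were not tested. It stood at 18.6, 19.3, 15.4, 33.4 and 30.3 CPM in G0 and at 13.97, 12.9, 12.4, 35.6 and 33.4 in S-G2-M, and the groups overlapped. The change was -0.23 ± 0.15 (adjusted p = 0.207), with -0.41 in the WT-titled preparations and 0.07 in 5 and 8. Without a test, G1-S stood -0.95, -0.79 and -0.69 from G0 on the log2 scale in WT1, WT2 and WT3, and -0.17 and 0.02 in 5 and 8. Its libraries instead divided by day in every gate, as described further on. On the other strand Aktip and Gm45464 cover 21% of its exon length. Aktip had means of 43.7 CPM in G0, 25.5 in G1-S and 28.6 in S-G2-M, and Gm45464 of 3.11, 1.005 and 1.26. Their part in the Rbl2 counts was not tested.

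As shares of the 3 pocket protein genes per kilobase, Rb1 and Rbl1 exchanged places. Rb1 made up 64.4 ± 1.7% in G0 (SD, n = 5), 49.3 ± 3.9% in G1, 40.3 ± 3.5% in G1-S and 25.5 ± 2.6% in S-G2-M, and its ranges in G0 (62.7% to 66.7%) and S-G2-M (22.7% to 28.9%) were far apart. Rbl1 went from 19.4 ± 1.4% to 36.4 ± 4.7%, 50.04 ± 2.1% and 64.3 ± 5.7% through the same gates. Rbl2 took 16.2 ± 2.4% in G0 and 10.2 ± 3.2% in S-G2-M. These shares are of RNA and not of protein.

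**Figure D3:**
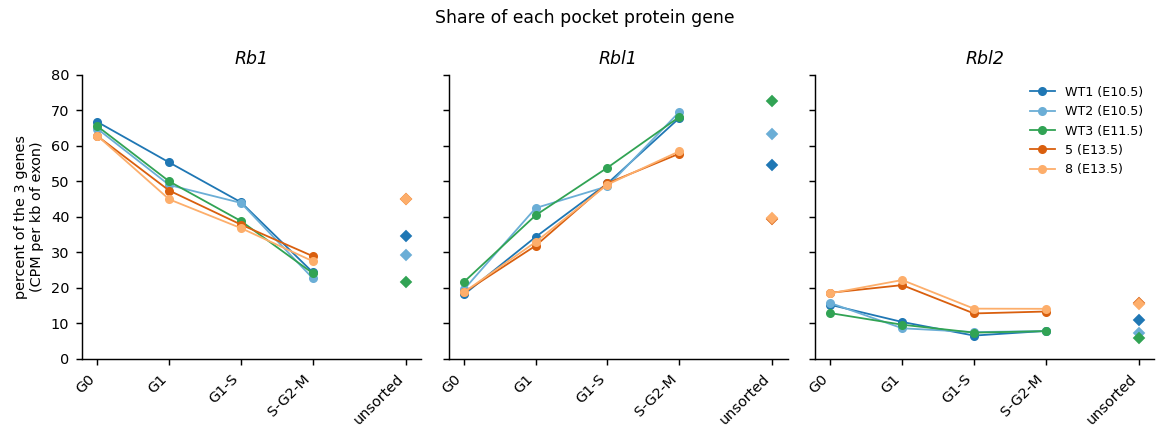
Share of each pocket protein gene (y axis, percent of the 3 genes on CPM per kilobase of exon) in each gate and in unsorted cells (x axis), with 1 line and 1 diamond for each preparation. Rb1 falls from 62.7% to 66.7% in G0 to 22.7% to 28.9% in S-G2-M, and Rbl1 rises in its place.

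In the MuvB core, the DNA-binding subunit gene Lin54 and the scaffold gene Lin9 rose when cells passed from G1 to G1-S. Lin54 (ENSMUSG00000035310.15, chromosome 5 from 100441918 to 100500639, minus strand), whose product reads the CHR element, stood at 23.7, 25.1, 27.9, 21.1 and 21.3 CPM in G0 and at 22.3, 32.4, 34.2, 21.9 and 18.4 in G1, with overlap. In G1-S it stood at 67.7, 64.9, 65.8, 64.3 and 52.1 CPM and in S-G2-M at 73.0, 76.2, 76.6, 76.9 and 65.8. All G1-S values lay above all G1 values. The step into G1-S was 1.30 ± 0.11 (2.47-fold, adjusted p = 3.48e-09; 1.17 and 1.48 within the batches), while the steps before it (0.10 ± 0.11, adjusted p = 0.492) and after it (0.23 ± 0.11, adjusted p = 0.143, higher in 5 of 5 preparations) were not called. Whether the steps differ from each other was not tested.

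Lin9 (ENSMUSG00000058729.13, chromosome 1 from 180641150 to 180690694) had the same order with a smaller rise. It stood at 28.1, 27.6, 29.6, 22.1 and 23.2 CPM in G1 and at 39.3, 40.4, 42.0, 41.2 and 36.5 in G1-S, without overlap. That step was 0.62 ± 0.09 (adjusted p = 3.97e-05; 0.51 and 0.73 within the batches), and G0 to S-G2-M was 1.03 ± 0.09 (adjusted p = 2.44e-09). The step from G1-S to S-G2-M, 0.26 ± 0.09, was higher in 5 of 5 preparations without overlap but was not called (adjusted p = 0.0528); it was called within 5 and 8 (0.35, adjusted p = 0.0195) and without WT3 (0.36, adjusted p = 0.0235).

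The small subunits moved less. Lin52 (ENSMUSG00000085793.2, chromosome 12 from 84451422 to 84546145), whose phosphorylation by DYRK1A is known to hold DREAM together, stood at 13.2, 13.04, 13.4, 13.6 and 9.93 CPM in G0 and at 21.2, 19.8, 17.9, 19.0 and 20.3 in S-G2-M. The groups did not overlap and the change was 0.64 ± 0.11 (adjusted p = 3.52e-05; 0.59 and 0.69 within the batches). Its call at the last step (0.35 ± 0.11, adjusted p = 0.0309) was lost within either batch (adjusted p = 0.172 and 0.0667), without a low-count filter (adjusted p = 0.246) and without WT1, WT2, 5 or 8 (adjusted p = 0.0732 to 0.174). Lin37 (ENSMUSG00000036845.12, chromosome 7 from 30555441 to 30559838, minus strand), needed for repression by DREAM, stood at 4.82 to 11.02 CPM over the 20 sorted libraries, and none of the 3 steps passed the test. Its change from G0 to S-G2-M was 0.13 ± 0.14 (adjusted p = 0.492), higher in 3 of 5 preparations. Rbbp4, the histone-binding subunit of MuvB, is no member of the set and is named for that role after its values were seen: it rose by 0.62 ± 0.08 from G0 to S-G2-M (adjusted p = 8.39e-07), from a G0 range of 242 to 257 CPM to 369 to 411 CPM.

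Mybl2 (ENSMUSG00000017861.11, chromosome 2 from 163054687 to 163084688) had the widest range of the set and was the only one of the 10 with its highest mean in G1-S. It stood at 3.77, 8.73, 8.50, 7.46 and 8.84 CPM in G0 and at 23.5, 24.6, 29.9, 14.9 and 14.3 in G1. In G1-S it stood at 105, 98.5, 88.3, 70.8 and 89.4 CPM, and in S-G2-M at 56.2, 55.6, 53.8, 55.2 and 62.5. None of these 4 groups overlapped with another, and the highest gate mean was 12.1 times the lowest. The steps were 1.503 ± 0.19 (adjusted p = 1.46e-06; 1.92 within the WT-titled preparations and 0.83 within 5 and 8), 2.09 ± 0.19 (adjusted p = 9.58e-09; 1.91 and 2.41) and -0.67 ± 0.18 (adjusted p = 0.0121; -0.81 and -0.44). The fall after G1-S was seen in 5 of 5 preparations, and its call was lost without WT2 (adjusted p = 0.0719) or WT3 (adjusted p = 0.0556). Macrophage and cardiomyocyte markers were highest in G1-S among the gates in 5 of 5 preparations and hepatocyte markers in all but WT1. Hepatocyte, macrophage and cardiomyocyte sums there were 18.5 to 2078, 80.8 to 311 and 312 to 926 CPM, against 18.8 to 32.2, 6.86 to 13.6 and 11.9 to 30.7 in S-G2-M, and their part in the G1-S levels of the set was not tested. Within the Myb family per kilobase, Mybl2 made up 34.4 ± 15.8% in G0 and 55.4 ± 5.6% in S-G2-M (SD, n = 5), with the rest mostly Mybl1 (A-Myb). By day, it went from 23.3% to 52.5% at E10.5 and from 50.9% to 55.2% at E13.5 (means of 2 libraries each).

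The partners, kinases and targets of the set were taken from lists drawn up by known role, with earlier results of these data known. Of 19 partner and kinase genes 17 were higher in S-G2-M than in G0 and 2 lower, where 27.5% of all genes were higher and 26.6% lower. The median log2 change of the 19 was 1.41, against -0.013 over all genes. Ccna2, cyclin A2, was at 5.10 ± 0.26 and Foxm1, the partner of MMB at late genes, at 4.99 ± 0.23, changes of 34.4-fold and 31.8-fold. The 2 that fell were the CDK inhibitor genes Cdkn1a (-1.53 ± 0.30, adjusted p = 0.000144) and Cdkn1c (-0.98 ± 0.24, adjusted p = 0.00159). All 6 other E2F genes were higher in S-G2-M (median 1.96), from E2f6, a repressor outside pocket protein control, at 0.68 ± 0.10 to E2f8, an atypical repressor, at 3.54 ± 0.26.

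Early targets, genes of DNA replication with E2F sites, and late targets, mitotic genes with CHR elements, were followed step by step. Of all genes, 18.2%, 11.7% and 7.28% were higher at the 3 steps, and 18.1%, 7.18% and 10.1% lower. Of 18 early targets 18 were higher in G1 than in G0 (median 1.30), 18 were higher in G1-S than in G1 (median 1.14), and at the last step 10 were lower and 8 not called (median -0.45). Rrm2, a ribonucleotide reductase subunit, rose by 1.89 ± 0.19 and 2.13 ± 0.19 and then stood at -0.33 ± 0.18 (adjusted p = 0.234). Mcm2, part of the replicative helicase, rose by 1.21 and 0.43 and then fell by 0.45 on the log2 scale. Of 18 late targets 15, 18 and 18 rose at the 3 steps, with medians of 0.98, 3.002 and 1.27. Ccnb1, cyclin B1, changed by 0.84 ± 0.30, 3.65 ± 0.30 and 1.67 ± 0.27, and Aurka, a mitotic kinase, by 0.05 ± 0.26 (adjusted p = 0.898), 2.94 ± 0.27 and 1.61 ± 0.25. Mybl2 had the sign of the early targets' median at each step. E2f4, E2f5, Rbl1, Lin9, Lin52 and Lin54 had that of the late targets, and of these only E2f5 and Rbl1 were called at all 3 steps. Lin54 was called at the step from G1 to G1-S alone.

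**Figure D4:**
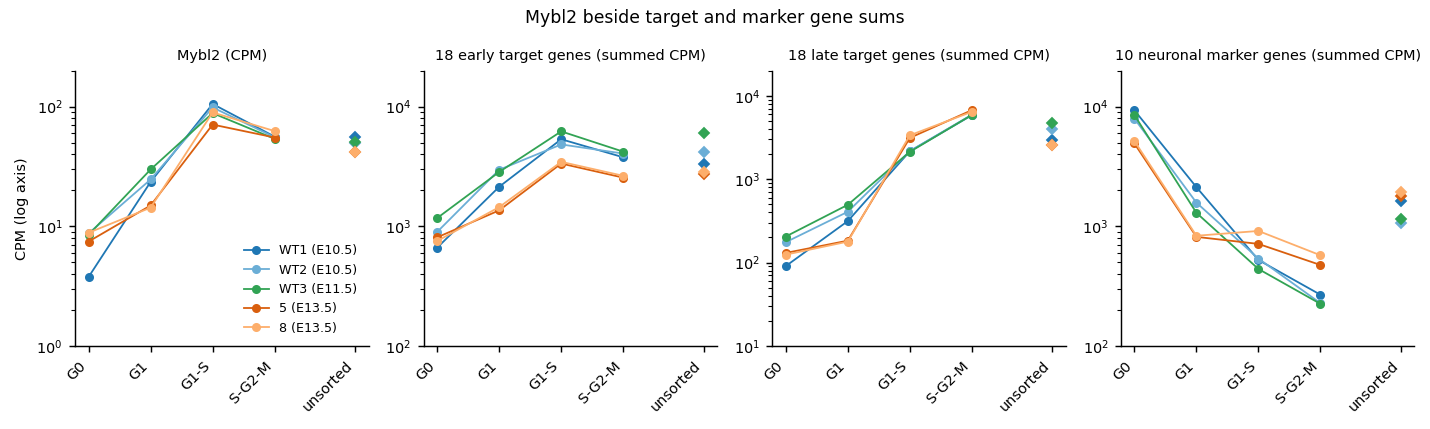
Mybl2 (CPM) and the summed CPM of 18 early target, 18 late target and 10 neuronal marker genes (y axes, log scale) in each gate and in unsorted cells (x axis), with 1 line and 1 diamond for each preparation. Mybl2 and the early targets are highest in G1-S, the late targets climb to 5845 to 6717 CPM in S-G2-M, and the neuronal markers are highest in G0.

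Across days, Rbl2 was higher and E2f5 lower at E13.5 than at E10.5 in every fraction. This comparison set 2 preparations against 2 within each fraction. The test moderates the spread of each gene by that of all genes, so the p-values do not rest on these few preparations alone. For Rbl2 and E2f5 those in S-G2-M were far smaller than in other fractions at changes and SEs of like size. They are not read here as stronger evidence than those of the other fractions. Rbl2 went from a mean of 19.0 CPM at E10.5 to 31.8 at E13.5 in G0, from 12.7 to 32.7 in G1, from 10.4 to 30.2 in G1-S, from 13.4 to 34.5 in S-G2-M and from 12.9 to 36.7 in unsorted cells. The E11.5 library, of the WT-titled batch, lay at 15.4, 11.97, 9.52, 12.4 and 7.70 CPM, below both E10.5 libraries of its fraction in G0, G1-S, S-G2-M and unsorted cells and between them in G1. The log2 changes were 0.76 ± 0.14, 1.40 ± 0.22, 1.51 ± 0.19, 1.36 ± 0.15 and 1.53 ± 0.21 (adjusted p = 0.00207, 0.00285, 7.33e-05, 7.51e-16 and 0.00152). Without preparation 5 the call in G0 was lost (adjusted p = 0.061), and the other 4 held without any 1 preparation. Aktip, on the other strand, had G0 means of 43.9 and 44.7 CPM and S-G2-M means of 31.3 and 25.7 CPM at E10.5 and E13.5. Gm45464, also on that strand, went from 2.90 to 4.07 CPM in G0, 1.08 to 2.07 in G1 and 0.59 to 1.26 in G1-S. It went from 0.93 to 1.38 CPM in S-G2-M and from 0.97 to 0.73 in unsorted cells.

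E2f5 had means of 17.6 CPM at E10.5 and 12.7 at E13.5 in G0, 27.01 and 16.5 in G1, 31.7 and 22.9 in G1-S, 52.6 and 28.6 in S-G2-M, and 46.2 and 25.1 in unsorted cells. The log2 changes were -0.46 ± 0.16, -0.68 ± 0.17, -0.49 ± 0.15, -0.88 ± 0.12 and -0.86 ± 0.18 (adjusted p = 0.04, 0.019, 0.0247, 2.45e-10 and 0.00791). Without 5 or 8 the calls in G0, G1 and G1-S were lost (adjusted p = 0.107 to 0.267), while those in S-G2-M and unsorted cells held. DESeq2 did not call E2f5 in G0 (adjusted p = 0.112) or G1-S (adjusted p = 0.0612). For E2f5, Rbl2 and Lin37, the 3 WT-titled libraries and the 2 of E13.5 did not overlap in any of the 5 fractions. The share of all genes that part in this way was not counted, so this describes the members and does not set them apart. Lin37 was not called in G0, G1 or G1-S (adjusted p = 0.17, 0.401 and 0.255 in edgeR's test). Day and batch cannot be told apart.

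Counts of members called between days were near the share of all genes. In G0 3 members were higher and 1 lower (all genes 19.9% and 24.0%), with Rb1 at 0.43 ± 0.12 and Rbl1 at 0.49 ± 0.15 beside Rbl2. In G1 1 was higher and 2 lower (15.7% and 22.0%), the second of them Mybl2 at -0.69 ± 0.16. In G1-S 2 were higher and 1 lower (15.8% and 17.6%), with Rbl1 at 0.60 ± 0.13. In S-G2-M 4 were higher and 1 lower (22.6% and 29.5%), with Rb1 at 0.83 ± 0.12, Rbl1 at 0.32 ± 0.11 and Lin37 at 0.56 ± 0.22. In unsorted cells 4 were higher and 1 lower (23.2% and 23.7%), with E2f4 at 0.71 ± 0.13, Rb1 at 1.25 ± 0.14 and Lin37 at 0.82 ± 0.21. Without 5 or without 8 the G0 calls of Rb1 (adjusted p = 0.171 and 0.066) and Rbl1 (0.211 and 0.101), the G1 call of Mybl2 (0.165 and 0.195) and the unsorted calls of E2f4 (0.0646 and 0.0924) and Lin37 (0.27 and 0.167) were lost, with 1 library left at E13.5. The G1-S and S-G2-M calls of Rbl1 were lost without 5 (adjusted p = 0.0555 and 0.231), and the S-G2-M call of Lin37 without WT1 (0.0686), without 8 (0.446) and with DESeq2 (0.101). In unsorted cells the median of all genes was -0.055, and -0.125 with RLE factors and -0.238 with DESeq2. Lin9, Lin52 and Lin54 were not called in any fraction, with values from -0.41 to 0.06. Lin9 and Lin54 were called lower in unsorted cells with RLE factors (-0.40 and -0.33, adjusted p = 0.0256 and 0.0482). Mybl2 was called lower there with RLE factors (-0.40, adjusted p = 0.0415) and in G1-S without a low-count filter (adjusted p = 0.0256). Other calls came without WT1 or without WT2, which leaves 1 library at E10.5, so only their log2 changes are given. In unsorted cells without WT1 and without WT2 they were -0.42 and -0.32 for Lin9 and -0.39 and -0.20 for Lin54. For Mybl2 they were -0.25 and -0.48 in unsorted cells and -0.33 and -0.39 in G1-S. Without WT1, Lin9 stood at -0.39 in G0, Lin54 at -0.64 and Rb1 at 0.30 in G1, and Lin37 at 0.68 in G1-S. Without WT2, E2f4 stood at 0.55 and Rb1 at 0.38 in G1-S, and Rbl1 at 0.20 in unsorted cells. Mybl2 in G0 stood at 1.12 without WT2, where the E10.5 library left was WT1, at 3.77 CPM against 8.73 in WT2.

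**Figure D5:**
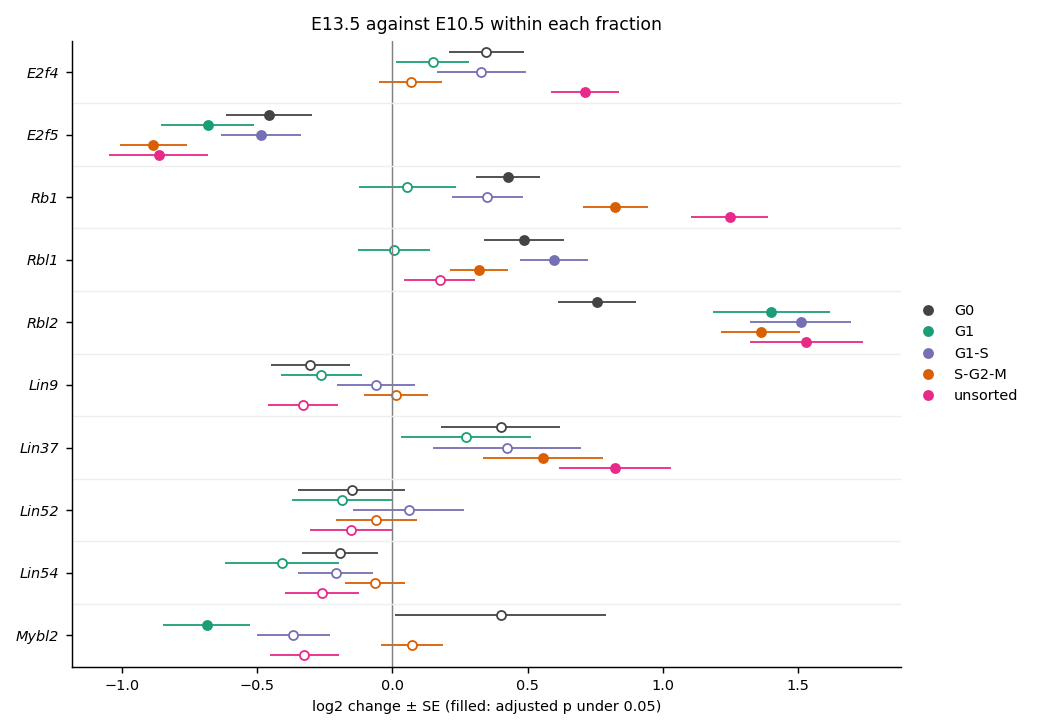
Log2 change from E10.5 to E13.5 (x axis) of each member (y axis) in the 4 gates and in unsorted cells (colours), with bars of 1 SE from 2 preparations a day. Filled points passed the test: Rbl2 lies between 0.76 and 1.53 and E2f5 between -0.88 and -0.46 in all 5 fractions.

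In unsorted cells E2f4 was mostly above every gate, and erythroid markers were far higher than in the gates. Unsorted E2f4 stood at 63.6, 62.8, 72.6, 98.1 and 106.5 CPM, above all 4 gates of the same preparation in 4 of 5 preparations, and by 1.72 times in the most extreme. For Mybl2, Rbl1 and Lin54 the unsorted level lay between the gates in 5 of 5 preparations. The 8 erythroid markers summed to 22530, 11390, 22690, 30630 and 35420 CPM in unsorted cells and to 60.3 to 2886 CPM in the gates. Unsorted Rb1 went from 39.5 and 32.3 CPM at E10.5 to 83.0 and 85.4 at E13.5, with 21.9 at E11.5. Whether erythroid cells took part in these levels was not tested.

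Whether a gate change differed between days was tested as an interaction of E13.5 with E10.5. At the step from G1 to G1-S 1 of the 10 members passed, Rbl1, where 5.31% of all genes did (median of all genes 0.11). That step of Rbl1 was 0.54 and 0.49 on the log2 scale in WT1 and WT2, 0.46 in WT3, and 1.21 and 1.12 in 5 and 8. The difference was 0.645 ± 0.15 (adjusted p = 0.0153), and it was lost without 5 (0.59, adjusted p = 0.495), without 8 (0.63, adjusted p = 0.519) and without a low-count filter (0.60, adjusted p = 0.112). Rb1 passed at this step without WT2 (0.59), a fit that leaves 1 library per fraction at E10.5. At the step before, from G0 to G1, 0 members passed in edgeR's test (all genes 3.51%, median -0.104), with 3 at an unadjusted p under 0.05 and 1 by DESeq2. These were Rbl1 (-0.51 ± 0.15, adjusted p = 0.0725), Mybl2 (-1.12 ± 0.34, adjusted p = 0.0857) and Rbl2 (0.62 ± 0.26, adjusted p = 0.23). With a replicate block for the preparation 2 passed, Rbl1 (-0.51, adjusted p = 0.0325) and Mybl2 (-1.13, adjusted p = 0.0463), and DESeq2 called Mybl2 (-1.08, adjusted p = 0.0303), as did a fit without a low-count filter (-1.13, adjusted p = 0.000606). Without WT2 Mybl2 (-1.79), Rbl1 (-0.54) and Rb1 (-0.58) passed, and without WT1 Rbl2 did (0.95), again with 1 library per fraction left at E10.5. The G0 to G1 rise of Mybl2 was 2.63 in WT1, 1.49 in WT2, 1.81 in WT3, 0.9991 in 5 and 0.69 in 8. For S-G2-M against G1-S 0 passed (1.02% of all genes; 1 at an unadjusted p under 0.05, Rb1 at 0.45 ± 0.20, and 0 by DESeq2). For S-G2-M against G0 0 passed (8.66%; 1 at an unadjusted p under 0.05, Rbl2 at 0.61 ± 0.26, and 0 by DESeq2). Without WT1, Rb1 (0.57) and E2f5 (-0.55) passed in the first, and Rbl2 (0.71) and Rb1 (0.51) in the second. Without WT2, Rbl2 (0.56) and Mybl2 (-1.01) passed in the second. These fits too had 1 library per fraction at E10.5.

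Over the 20 sorted libraries, with each preparation's mean removed, most members ran together and Rb1 ran against them. Pearson's r between Lin9 and Lin54 was 0.97, between E2f5 and Rbl1 0.97 and between Rbl1 and Mybl2 0.90. For Rb1 it was -0.88 with E2f5 and -0.79 with Rbl1. Rbl2 (r from -0.66 with Mybl2 to 0.32 with Rb1) and Lin37 (from -0.25 to 0.35) followed neither course. The libraries share preparations and gates, so these are descriptions with no test. Among 10473 genes ranked in this way, the 3 most like Mybl2 were Clspn, Atad2 and Pola1 (r = 0.997, 0.995 and 0.994), and those most like Lin9 were Trim59, Dbf4 and Kif20a (0.993, 0.989 and 0.989). Lin54 was nearest to Incenp, Hist1h2bm and Hist2h4 (0.988, 0.987 and 0.986), and Rbl1 to Kpnb1, Cyp39a1 and Tti1 (0.991 each). E2f5 was nearest to Gpsm2 (0.991), E2f4 to Kat2a (0.982), Rb1 to Myo18a (0.959), Lin52 to Brf2 (0.925) and Rbl2 to Rc3h1 (0.914). The closest gene to Lin37, Jmjd6, reached 0.762.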

How the data were processed

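RNA of sorted and unsorted cells of FUCCI embryos was sequenced after ribosomal RNA depletion. The authors deposited unnormalized read counts per gene in 130 columns, several to a library. STAR 2.5.3, HTSeq 0.8.0 and the build mm10 are named in the submitters' processing notes, while the annotation and the use of strand were "not given in the sources used here". Columns of a library differed by little more than counting error (dispersion 1.09 to 1.23, against 5.89 to 117.5 between preparations) and were summed to 25 libraries. Genes were filtered with filterByExpr (minimum count 10, minimum total 15), scaled by TMM factors and tested with edgeR 4.0.16 (quasi-likelihood F test, robust, R 4.3.3, limma 3.58.1) with Benjamini-Hochberg adjustment over all genes tested and a threshold of 0.05. Phase comparisons used all 25 libraries with fraction and day as terms, day comparisons the 5 libraries of a fraction, where the E11.5 library had its own mean, and day differences a mean for each day and fraction. The block for the preparation was an alternative. SE is the absolute log2 change over the square root of F. CPM per kilobase used the union of exons in GENCODE M21. The model scripts were checked on simulated counts.

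Alternatives were RLE factors, no low-count filter, DESeq2 1.42.0, a block for the preparation, each titling batch alone, sorted libraries alone, the scaling without Gm26917 and Gm42418, the longest transcript as length, and leaving out each preparation. The labels do not say that preparations came from separate embryos. In day comparisons the p-values measure the spread between the preparations of a fraction. The main fits for phases and day differences had no term for the preparation. Their p-values measure the spread among libraries treated as independent. The test moderates the spread of each gene by that of all genes, so a p-value does not rest on that gene's own spread alone. Libraries of 1 preparation deviated together: over 14896 genes the correlation of their deviations was 0.169 to 0.682 for the E10.5 preparations (0.167 to 0.449 for E13.5), and the pairing comes from the title prefix. The members and gene lists were chosen with earlier results of these data known. All members are named; of the other lists up to 5 genes each, those with the largest and smallest change in S-G2-M against G0, and for likeness the 3 genes of highest Pearson r among genes whose mean log2 CPM reached 3.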

Additional observations from a re-analysis of the deposited data

Results flagged for a closer look

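A library stood apart from the other 4 of its fraction, by a test of the gap to its neighbour at the 95% level, in 4 of the 50 sets of 5 libraries tested, and chance gives about 1 in 20. Lin52 in the G0 gate was low in preparation 8, at a log2 CPM of 3.32. Lin54 in the G1-S gate was low in preparation 8, at 5.70. Mybl2 in the G0 gate was low in WT1, at 1.92, and in the S-G2-M gate it was high in preparation 8, at 5.97. The rise of Rbl1 from G1 to G1-S differed between days, by 0.645 on the log2 scale at E13.5 over E10.5 (edgeR quasi-likelihood test of the interaction, adjusted p = 0.0153), and was larger in both E13.5 preparations than in the other 3.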

How the results depend on the processing

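The phase counts of members called stayed within 1.5 times under all 8 other settings, and without any 1 preparation they ran from 4 to 4 for G1 against G0, 4 to 5 for G1-S against G1, 2 to 5 for S-G2-M against G1-S (2 without WT2, 3 without 5) and 8 to 8 for S-G2-M against G0. Day counts moved with single preparations: without one they ran from 0 to 5 in G0, 1 to 5 in G1, 1 to 6 in G1-S and 3 to 9 in unsorted cells, lowest without 5 and highest without WT1 or WT2. Leaving out any of WT1, WT2, 5 or 8 leaves 1 library at a day, which is assumed to vary like the other day. DESeq2 gave 2 members in G0 and RLE factors 8 in unsorted cells. Day differences without a preparation ran from 0 to 3 (G1 against G0), 0 to 2 (G1-S against G1), 0 to 2 (S-G2-M against G1-S) and 0 to 2 (S-G2-M against G0). For G1 against G0 they were 1 without a filter, 1 with DESeq2 and 2 with the replicate block, which changed no other call of a member; for G1-S against G1 the count was 0 without a filter. The cause was not tested.

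Signs changed in 26 of the values compared, and none of the changed values passed the test. Day differences of a member were compared only where the unadjusted p was under 0.05 or some setting called it, so sign changes of the others are not counted. Within preparations 5 and 8 they were Rbl2 (0.027) and Lin54 (-0.087) in G1 against G0, Rb1 in G1-S against G1 (0.20) and Rbl2 in S-G2-M against G0 (0.066). From E10.5 to E13.5, Rbl1 in G1 stood at -0.00045 with RLE factors, -0.0080 without a filter and -0.0029 with DESeq2, and Lin9 in S-G2-M at -0.0087 without a filter. Without a preparation, Rb1 and Lin52 in G1-S against G1 ran from -0.13 to 0.063 and -0.028 to 0.15. Between days such ranges were -0.42 to 0.057 (Lin52) and -0.10 to 1.12 (Mybl2) in G0, -0.16 to 0.30 (Rb1) and -0.0025 to 0.017 (Rbl1) in G1, -0.15 to 0.041 (Lin9) and -0.10 to 0.27 (Lin52) in G1-S, and -0.10 to 0.26 (E2f4), -0.075 to 0.11 (Lin9), -0.18 to 0.059 (Lin54) and -0.0012 to 0.17 (Mybl2) in S-G2-M. The day difference of Mybl2 in S-G2-M against G0 ran from -1.01 to 0.19. With the longest transcript as length, Rbl2 took 18.8% of the pocket protein genes in G0, over 1 SD from the value on union exons.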
